A study of Mus musculus with 32 samples.

Results

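Type I interferons induce a set of effector genes whose products act on viral RNA, on membranes and on other proteins, and 10 of these effectors are described here in the mesentery of mice given pristane. They were chosen by gene symbol: Ifit1, Ifit2, Ifit3, Isg15, Usp18, Ifi44, Ifi44l, Rsad2, Bst2 and Ifi27l2a. Each was read from its brightest probe set that the array annotation ties to 1 symbol, and 8 of the 10 had such a probe set, of 18193 genes on the array. All 8 passed the filter on dim probe sets, as did 13016 genes in all. Isg15 shared its only probe set with the pseudogene Gm9706 and is given beside the counts but outside them, and Ifi44 had no named probe set and was not analysed here. Ifit3b, a near-identical neighbour of Ifit3, had no probe set of its own either, so the Ifit3 signal may hold transcripts of both.

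Expression was read on oligonucleotide arrays in 32 samples of mesentery, the fatty, vessel-bearing peritoneal fold on which the gut hangs. Treated mice received 0.5 ml of pristane (TMPD), a hydrocarbon oil that causes chronic peritoneal inflammation, by intraperitoneal injection. The treated groups were BALB/c at day 3 (3 arrays), the BALB/DBA F1 hybrid at day 3 (3), DBA at day 3 (3), BALB/c at day 18 (4) and DBA at day 18 (3). Untreated controls were BALB/c (7), F1 (3) and DBA (6). The arrays carry title codes of 3 runs: 1 run holds every day 3 array with 3 controls of each strain, another the 4 BALB/c day 18 arrays with 4 controls, and another the 3 DBA day 18 arrays with 3 controls. A response compares treated arrays with controls of the same strain and run. The labels give neither the sex nor the age of the mice, nor the DBA substrain. Nor do they state whether each array is a different animal. The p-values reflect variation among arrays, and how much of it is technical is not known. The female transcript Xist was high on some arrays and low on others within each day 18 group and its controls. Each of those groups thus holds more than 1 animal, which the day 3 run arrays do not show.

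Interferon alpha and beta bind the receptor of Ifnar1 and Ifnar2, whose kinases Jak1 and Tyk2 lead to the complex ISGF3, which contains Stat2 and Irf9 and binds interferon-stimulated response elements near its target genes. Many cell types of a tissue can respond in this way, immune and stromal cells included. In pristane-treated BALB/c mice a lasting interferon signature is a known feature of the lupus-like disease that the oil can bring on. In these whole-tissue samples, fewer cells of a type and less RNA per cell cannot be told apart.

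Upstream sequences are shown because 7 of the 8 tested genes rose together in BALB/c and in the F1. RefSeq (GRCm38.p6, a C57BL/6J genome; the BALB/c and DBA sequences were not used here) held promoters for 8 of the 10 genes, Usp18 and Ifi27l2a being named only. The 250 bases before each start were searched on both strands for GAAANNGAAA, or TTTCNNTTTC on the other strand, the core of an interferon-stimulated response element. It was present in 5 of the 8 genes, against 2.98% of 32851 promoters and 3.46% of 27025 genes. Capitals mark the matches, and overlapping matches run together. The Ifit1 promoter (chr19:34640639-34640888, plus strand) held 2 matches, 104 and 85 bases before the start. Isg15 (chr4:156200819-156201068, minus strand) held 3 overlapping matches at 78, 72 and 66 bases, Rsad2 (chr12:26456453-26456702, minus strand) held 1 at 120 bases, and Bst2 (chr8:71537473-71537722, minus strand) held 2 overlapping matches at 130 and 124 bases. Ifit3, not printed, also held 2, at 156 and 122 bases. Ifi44l (chr3:151762892-151763141, minus strand) is shown because it differed most between the strains, and these letters were not in its window, nor in those of Ifit2 and Ifi44.
Ifit1: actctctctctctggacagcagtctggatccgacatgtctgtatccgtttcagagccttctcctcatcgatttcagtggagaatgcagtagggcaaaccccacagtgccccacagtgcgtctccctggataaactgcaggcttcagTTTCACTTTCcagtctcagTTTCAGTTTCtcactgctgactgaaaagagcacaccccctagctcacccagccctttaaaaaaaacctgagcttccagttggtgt
Isg15: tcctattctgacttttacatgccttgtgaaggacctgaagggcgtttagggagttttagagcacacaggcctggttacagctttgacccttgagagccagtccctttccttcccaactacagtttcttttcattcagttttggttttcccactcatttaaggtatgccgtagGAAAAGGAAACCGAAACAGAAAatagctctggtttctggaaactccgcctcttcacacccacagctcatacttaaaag
Rsad2: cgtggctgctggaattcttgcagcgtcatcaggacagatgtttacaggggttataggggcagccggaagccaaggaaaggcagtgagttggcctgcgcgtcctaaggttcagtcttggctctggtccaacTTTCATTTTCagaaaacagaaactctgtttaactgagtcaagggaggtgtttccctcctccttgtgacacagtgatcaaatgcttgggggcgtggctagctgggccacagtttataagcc
Bst2: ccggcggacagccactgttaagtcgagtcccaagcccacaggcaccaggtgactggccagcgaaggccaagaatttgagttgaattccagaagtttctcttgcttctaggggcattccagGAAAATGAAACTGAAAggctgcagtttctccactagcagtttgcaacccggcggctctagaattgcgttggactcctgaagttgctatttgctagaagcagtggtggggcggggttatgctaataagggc
Ifi44l: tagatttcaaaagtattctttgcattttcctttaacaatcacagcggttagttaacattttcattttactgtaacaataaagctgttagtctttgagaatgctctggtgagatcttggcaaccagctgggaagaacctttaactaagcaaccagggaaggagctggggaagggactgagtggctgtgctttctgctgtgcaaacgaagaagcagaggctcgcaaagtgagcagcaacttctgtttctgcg

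Array medians ran from 90.6 to 135.3, and no pair of arrays was identical. BALB/c control replicate 2 (day 18 run) stood apart: it correlated with no other array above 0.858, and its 7 pancreatic acinar markers summed to 854832. On F1 control replicate 1 the 7 intestinal epithelial markers summed to 21811, against at most 966 on the other F1 controls. The female transcript Xist was high on 21 arrays and low on 11. The 3 treated F1 arrays were all high and the 3 F1 controls all low, so sex and treatment cannot be told apart within the F1, whereas every other treated group had as many high arrays as its controls. In each pair, the signal ratio of the 3' to the 5' end of beta-actin was lower with pristane, for example 1.88 ± 0.3 in BALB/c day 3 arrays and 2.42 ± 0.275 in their controls (SD, n = 3 each); its part in the results was not tested.

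The first question was what pristane did to the effectors at day 3 in each strain. In BALB/c 7 of 8 genes rose and 1 fell (over all genes 18.3% were called higher and 17.2% lower), with a median log2 change of 2.56 against -0.01 over all genes tested. In the F1 7 of 8 rose and none fell (18.6% and 18% over all genes), with a median of 3.5. In DBA 1 of 8 rose (Bst2) and none fell (16.4% and 13.4%), with a median of 0.13. A gene was called at an adjusted p under 0.05 (limma, Benjamini-Hochberg over all genes tested), and log2 changes are on the scale log2(signal + 24.9), which understates the change of dim genes.

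Ifit1 encodes an RNA-binding protein that blocks translation of viral RNA lacking host-type cap methylation. Its signal was 5018, 3279 and 7418 on the BALB/c day 3 arrays, against 566, 549 and 729 on their controls. On the F1 day 3 arrays it was 10899, 9214 and 7714, against 719.7, 613 and 610.1 on F1 controls. Every BALB/c and F1 treated array lay above every control of its strain. On the DBA day 3 arrays it was 610.1, 577 and 404, against 339.8, 387 and 466 on DBA controls, and these overlapped. Ifit1 rose by 2.97 ± 0.3 on the log2 scale in BALB/c (SE, adjusted p = 2.5e-08) and by 3.78 ± 0.3 in the F1 (adjusted p = 3.1e-10), and its change in DBA was 0.38 ± 0.3 (adjusted p = 0.37). With all DBA controls pooled over the runs, the DBA change was 0.74 and was called (adjusted p = 0.048).

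Ifit2 and Ifit3 encode partners that form complexes with Ifit1. Ifit2 read 932, 536 and 1973 on BALB/c day 3 arrays, against 418, 357 and 350.1 on controls, a rise of 1.36 ± 0.43 (adjusted p = 0.014) that rested on 1 array: without BALB/c day 3 replicate 3 the change was 0.88 (adjusted p = 0.14). In the F1 it read 5714, 3925 and 4979.6, against 517, 418 and 353 on F1 controls, a rise of 3.43 ± 0.43 (adjusted p = 5.6e-07). The rise of Ifit2 was the smallest of the 7 in BALB/c at day 3. In DBA it read 395, 324 and 371, against 409.5, 526 and 477 on controls, and although the treated arrays all lay below, the change of -0.35 ± 0.43 was not called (adjusted p = 0.59). Ifit3 averaged 3067 ± 1402 in BALB/c at day 3 and 596 ± 55.1 in controls, 9598 ± 1065 in the F1 and 909 ± 23.8 in F1 controls, and 670.1 ± 113 in DBA and 792 ± 161 in DBA controls (SD, n = 3 each). It rose by 2.21 ± 0.37 in BALB/c and 3.36 ± 0.37 in the F1, and its change in DBA was -0.23 ± 0.37 (adjusted p = 0.7).

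Isg15 encodes a ubiquitin-like modifier, and Usp18 the protease that removes it and also restrains the interferon receptor. The probe set that Isg15 shares with Gm9706 read 3704, 2231 and 5061 in BALB/c at day 3, against 211, 218 and 291 on controls, and 9164, 8322 and 7320 in the F1, against 229, 225 and 244. In DBA it read 316, 319.9 and 238, against 179, 165 and 198. All treated arrays lay above their controls, by 3.74 ± 0.32 in BALB/c and 5.00 ± 0.32 in the F1, and the DBA change of 0.61 ± 0.32 was not called (adjusted p = 0.17 over all probe sets kept). Usp18 read 2461, 1320.4 and 3449 in BALB/c at day 3, against 248, 250.3 and 337, and 5821, 4754 and 5112 in the F1, against 265, 269.7 and 252. In DBA it read 229, 229 and 146, against 246, 188 and 182. Usp18 rose by 2.91 ± 0.3 and 4.19 ± 0.3 in BALB/c and the F1, and in DBA treated and control arrays overlapped around a change of -0.04 ± 0.3 (adjusted p = 0.95; 95% interval -0.65 to 0.57).

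Ifi44l, a paralogue of the microtubule-associated Ifi44 whose own role is less clear, had the largest rise of the 8 at day 3 in BALB/c and the F1. It read 1340.4, 838 and 2424 in BALB/c, against 102, 106 and 111 on controls, and 2890.2, 1669.5 and 2426 in the F1, against 47, 41.7 and 50.8. The changes were 3.44 ± 0.47 (adjusted p = 2.8e-06) and 5.01 ± 0.47 (adjusted p = 5.8e-09). In DBA it read 18.8, 4 and 28, against 33.7, 2.9 and 10.8 on controls. All of these DBA signals were under 103.7, the filter for dim probe sets, so their order carries no reading. Ifi44l passed that filter on 15 arrays, none of them DBA, so its DBA changes, and the differences between responses that use them, compare with a signal near background.

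Rsad2 encodes viperin, an enzyme that makes a chain-terminating nucleotide, and Bst2 encodes tetherin, which holds budding virions at the cell surface. Rsad2 read 5335, 2687 and 7475 in BALB/c at day 3, against 424, 461 and 723, and 12168, 12036 and 9746 in the F1, against 1499, 827 and 641. It rose by 3.13 ± 0.41 and 3.57 ± 0.41, and in DBA (1275, 885 and 1146, against 426, 1601 and 909.8) the groups overlapped, with a change of 0.34 ± 0.41 (adjusted p = 0.59). Bst2 was the exception in DBA. It read 2297, 2106 and 2383 on the DBA day 3 arrays, against 919.6, 1045 and 1019 on DBA controls, and rose by 1.17 ± 0.22 (adjusted p = 0.00025). It rose by 2.07 ± 0.22 in BALB/c and 3.40 ± 0.22 in the F1, with 6167, 4663 and 6922 against 1375, 1183 and 1598 in BALB/c and 10045, 11551 and 11499 against 901, 935 and 1255 in the F1.

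Ifi27l2a, a small mitochondrial or nuclear-envelope protein of the interferon-induced IFI27 family, behaved differently from the other 7. It was bright on every array, from 11029.5 to 28054, and was not called higher in any response. In BALB/c at day 3 it read 16525, 15476 and 20796, against 19791, 28054 and 25259.9 on controls, and fell by 0.47 ± 0.17 on the log2 scale (adjusted p = 0.038) although the groups overlapped. In BALB/c at day 18 it read 15364, 14083, 13979 and 15163, against 17276, 24200, 18471 and 16994, and fell by 0.38 ± 0.15 (adjusted p = 0.043), every treated array lying below every control. Both calls were lost in other fits: over all alternatives the adjusted p ran from 0.00053 to 0.19 at day 3 and from 0.004 to 0.23 at day 18, and the day 18 change was -0.26 (adjusted p = 0.15) without BALB/c control replicate 2. The day 3 call was lost without BALB/c day 3 replicate 1 (-0.43) or 2 (-0.38) and without BALB/c control replicate 6 (-0.36) or 7 (-0.43). The day 18 call was lost on leaving out any of the 4 treated arrays or BALB/c control replicate 3, with changes of -0.40 to -0.36. The changes in the F1, DBA day 3 and DBA day 18 responses were 0.18, 0.19 and 0.28 (adjusted p = 0.45, 0.45 and 0.19). After quantile normalization the F1 change was called (0.45, adjusted p = 0.017), and with array weights the DBA day 18 change was (0.34, adjusted p = 0.025). Adipocyte markers fell beside it in BALB/c, 8 of 10 at day 3 and 10 of 10 at day 18. Of all genes, 17.2% and 22.2% were called lower there. Where Ifi27l2a was not called, 6 of 10 fell in the F1 and 1 of 10 in DBA at day 3. In DBA at day 18, 9 of 10 fell (18%, 13.4% and 25% of all genes in these 3 responses). In BALB/c the markers summed to 79119 to 94325 on treated and 142701 to 191484 on control arrays at day 3. The sums at day 18 were 48625 to 83554 and 124837 to 222967. No adipocyte marker was at 0, and the part of these markers in the change of Ifi27l2a was not tested.

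**Figure D1:**
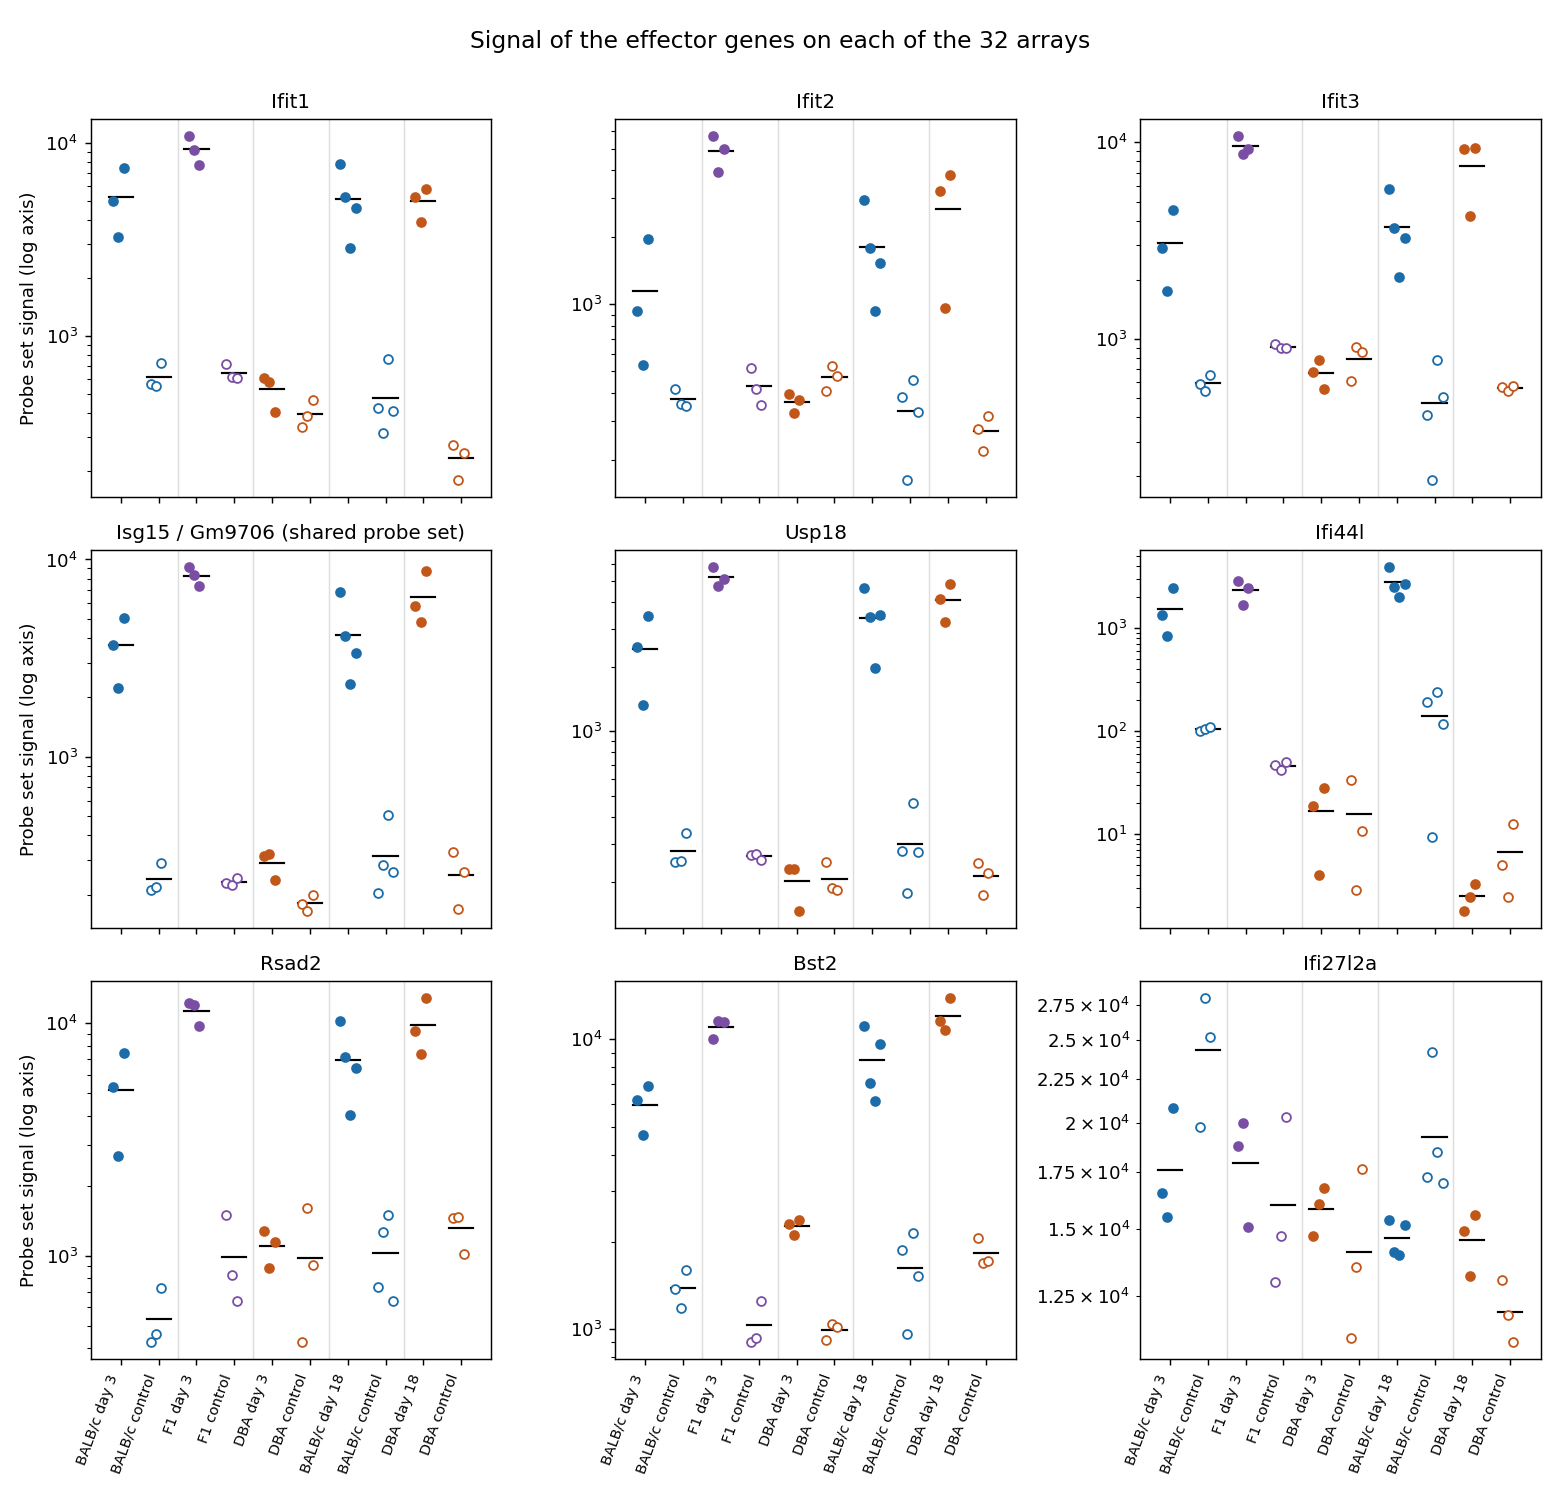
Probe set signal (log axis, a separate range for each panel) of 8 effector genes and of the probe set shared by Isg15 and Gm9706 on all 32 arrays. Filled points are pristane-treated arrays, open points untreated controls of the same run, and bars the group means. Apart from Ifi27l2a, BALB/c and F1 treated arrays sit above their controls, DBA day 3 arrays sit among theirs except for Bst2 and the shared probe set, where they sit above, and Ifit2, where they sit below, and Ifi44l stays between 1.8 and 33.7 on every DBA array.

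By day 18 the DBA mesentery showed most of the rise that it lacked at day 3. In the DBA day 18 response 6 of 8 genes rose and none fell (over all genes 22.4% were called higher and 25% lower), with a median of 2.92. In BALB/c at day 18, 7 of 8 rose and 1 fell (21.7% and 22.2%), with a median of 2.85. The genes that rose in DBA were Ifit1, Ifit2, Ifit3, Usp18, Rsad2 and Bst2.

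Ifit1 read 5268, 3917 and 5807 on the DBA day 18 arrays, against 272, 179 and 247 on their controls, and 7842, 5234, 2853 and 4633 in BALB/c at day 18, against 425, 314, 764 and 412. It rose by 4.28 ± 0.3 in DBA (adjusted p = 2.7e-11) and 3.34 ± 0.26 in BALB/c (adjusted p = 9.9e-11). Usp18 read 4135, 3236 and 4840.2 in DBA, against 243, 173 and 219, and 4637, 3420.1, 1969 and 3479 in BALB/c, against 278, 177, 463 and 273. It rose by 4.10 ± 0.3 and 3.41 ± 0.26, and treated arrays of the strains overlapped. The probe set shared by Isg15 and Gm9706 rose by 4.54 ± 0.32 in DBA and 3.59 ± 0.27 in BALB/c. It read 5843, 4812 and 8736 on DBA day 18 arrays, against 330.1, 169 and 259, and 6823, 4071, 2332 and 3348 in BALB/c, against 204, 282, 508 and 259.6.

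Ifit2 read 3237, 965 and 3819.9 in DBA at day 18, against 274, 219.8 and 316 on controls, the second array being the lowest for Ifit3 as well (9266, 4236 and 9360, against 568, 545 and 577). Ifit2 rose by 2.99 ± 0.43 in DBA and 2.32 ± 0.37 in BALB/c, and Ifit3 by 3.61 ± 0.37 and 2.96 ± 0.32. Rsad2 averaged 9819 ± 2780.4 in DBA at day 18 and 1312 ± 251 in controls (SD, n = 3 each), and 6966 ± 2563 in BALB/c and 1032 ± 413 in controls (SD, n = 4 each). Its changes were 2.86 ± 0.41 in DBA and 2.73 ± 0.36 in BALB/c. Its other 2 probe sets rose too in both, by 2.68 to 3.16. Bst2 read 11535, 10815 and 13898 in DBA, against 2071, 1689.7 and 1716, and rose by 2.71 ± 0.22, and in BALB/c it rose by 2.38 ± 0.19.

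Ifi44l did not follow the other 6 in DBA. It read 1.8, 2.5 and 3.3 on the DBA day 18 arrays, against 5.1, 2.5 and 12.5 on controls, all of them dim. In BALB/c at day 18 it read 3921, 2484, 1988 and 2691, against 192, 9.4, 240.5 and 119, and rose by 4.39 ± 0.41 (adjusted p = 2.7e-09). The lowest BALB/c control was replicate 2, the array that stood apart. Without it the genes called higher in BALB/c at day 18 stayed so, Ifi27l2a was no longer called lower, and Ifi44l rose by 3.75. A second Ifi44l probe set read 1.8, 22.1 and 7.2 in DBA at day 18, against 7.9, 4.3 and 17.3 on controls, and 3453, 2492, 1601 and 2523 in BALB/c, against 136, 92.1, 175 and 150. At day 3 the second probe set averaged 972 ± 333 in BALB/c and 74.2 ± 8.39 in controls, 1584 ± 577 in the F1 and 34.2 ± 9.88 in controls, and 5.67 ± 3.59 in DBA and 7.63 ± 5.35 in controls (SD, n = 3 each), so both probe sets were high in BALB/c and F1 treated arrays and dim on all DBA arrays. The remaining Ifi44l probe set was above 103.7 on 0 of 32 arrays. Whether DBA transcripts bind these probes as BALB/c transcripts do was not tested.

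**Figure D2:**
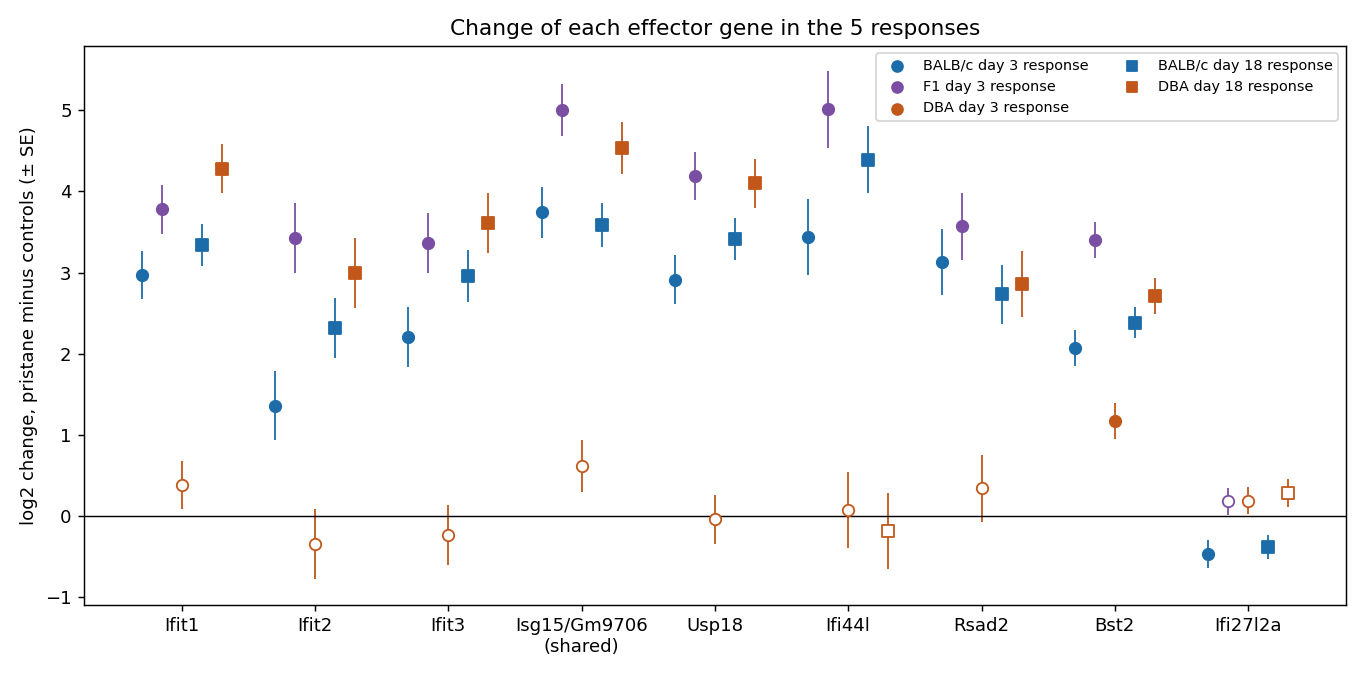
Change on the log2(signal + 24.9) scale, pristane minus controls of the same strain and run, with its standard error, for 8 effector genes and the probe set shared by Isg15 and Gm9706 (circles day 3, squares day 18; filled points were called, open points were not). In DBA at day 3 the filled point is Bst2 at 1.17, and in DBA at day 18 the open points are Ifi44l at -0.19 and Ifi27l2a at 0.28.

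The design also asks whether the responses themselves differed, which was tested as a difference of log2 changes. The day 3 differences share arrays pairwise, so they are not independent of each other. In the BALB/c minus DBA difference at day 3, 5 of 8 genes were called, all with the larger rise in BALB/c (0.492% of all genes were called): Ifi44l by 3.38 ± 0.67, Usp18 by 2.95 ± 0.42, Rsad2 by 2.79 ± 0.58, Ifit1 by 2.59 ± 0.43 and Ifit3 by 2.44 ± 0.52. The adjusted p was 0.017, 0.00046, 0.023, 0.0034 and 0.024 in that order. The Ifi44l difference sets the BALB/c rise against DBA signals near background. Ifit2 (1.71, adjusted p = 0.27) and Bst2 (0.90, adjusted p = 0.26) were not called. Ifit1 and Usp18 were called in all 27 alternatives, whereas the count was 8 with array weights (7.14% of all genes) and fell to 2 without BALB/c day 3 replicate 3 (0.246%). It was 3 (0.177% to 0.369% of all genes) without any 1 of these 7 arrays: BALB/c day 3 replicate 1, BALB/c control replicates 5 and 6, DBA day 3 replicates 2 and 3, and DBA control replicates 5 and 6.

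In the F1 minus DBA difference 7 of 8 genes were called, all with the larger rise in the F1 (2.01% of all genes). They ran from Bst2 at 2.24 ± 0.31 to Ifi44l at 4.94 ± 0.67, and all 7 stayed called with any 1 array left out. The Ifi44l value again compares with DBA signals near background. The treated F1 and their controls differ in sex by Xist. With the untreated BALB/c and DBA arrays of the same run, all high in Xist, in place of the F1 controls, a comparison added after the data were seen, the same number of 7 genes rose in the F1, Ifit1 by 4.16, Usp18 by 4.32 and Bst2 by 3.21; over all genes 23.6% were called higher and 23.1% lower in that comparison.

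None of the 8 was called in the F1 minus BALB/c difference at day 3 (limma; 0.238% of all genes), although all 8 estimates were above 0, from 0.44 for Rsad2 to 2.07 for Ifit2. At an unadjusted p under 0.05, 6 of the 8 passed, against 8.75% of all genes. The nearest to a call was Bst2 at 1.34 ± 0.31 (adjusted p = 0.057; 95% interval 0.69 to 1.98). Ifit2, at 2.07 ± 0.6, had an adjusted p of 0.17. With array weights 6 of the 8 were called (5.49% of all genes). Without BALB/c day 3 replicate 3 both were called (Ifit2 2.55, adjusted p = 0.047; Bst2 1.46, adjusted p = 0.046). In level, all 3 treated F1 arrays lay above all 3 treated BALB/c arrays for Ifit1, Ifit2, Ifit3, Usp18, Rsad2, Bst2 and the shared probe set (14.6% of all genes tested), but not for Ifi44l or Ifi27l2a.

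At day 18, 1 of 8 genes was called in the BALB/c minus DBA difference (1.01% of all genes): Ifi44l, at 4.58 ± 0.63 (adjusted p = 0.00025). Its second probe set gave 3.94 ± 0.38 (adjusted p = 7.8e-07). Both probe sets were dim on every DBA array, so both values set the BALB/c rise against a signal near background. Fitted on the arrays of this comparison alone, the first probe set missed the threshold at the same size (adjusted p = 0.057). The other 7 estimates were below 0, from -0.94 ± 0.4 for Ifit1 to -0.13 ± 0.55 for Rsad2. Their 95% intervals reached -1.82 (Ifit2), so a larger rise in DBA of that size is within the error. Before adjustment over genes, the intervals of Ifit1 (-1.76 to -0.12) and Ifi27l2a (-1.13 to -0.19) lay below 0, and those of the others included 0. With array weights 7 of the 8 were called (9.91% of all genes), Ifi44l with the larger rise in BALB/c.

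Between the times, 6 of 8 genes were called in the DBA day 18 minus DBA day 3 difference (4.18% of all genes), and all 6 rose more at day 18. Usp18 led at 4.14 ± 0.42 (adjusted p = 1.3e-06), ahead of Ifit1 at 3.90 ± 0.43, Ifit3 at 3.84 ± 0.52, Ifit2 at 3.34 ± 0.6, Rsad2 at 2.52 ± 0.58 and Bst2 at 1.54 ± 0.31. Rsad2 lost the call when DBA control replicate 5 was left out (2.08, adjusted p = 0.052), and likewise DBA day 18 replicate 3 (2.31, adjusted p = 0.051). In BALB/c, 0 of 8 were called in the day 18 minus day 3 difference (0.361% of all genes; none passed an unadjusted p under 0.05 either, against 11.6% of all genes), with estimates from -0.39 ± 0.55 for Rsad2 to 0.96 ± 0.56 for Ifit2. The 2 DBA responses come from different title code runs, each with its own controls, so run and time cannot be told apart beyond what those controls take out. Sex by Xist also differed between the times. In DBA, Xist was high on 3 of 3 treated and 3 of 3 control arrays at day 3, and on 1 of 3 of each at day 18. In BALB/c it was high on 3 of 3 of each at day 3 and on 2 of 4 of each at day 18.

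**Figure D3:**
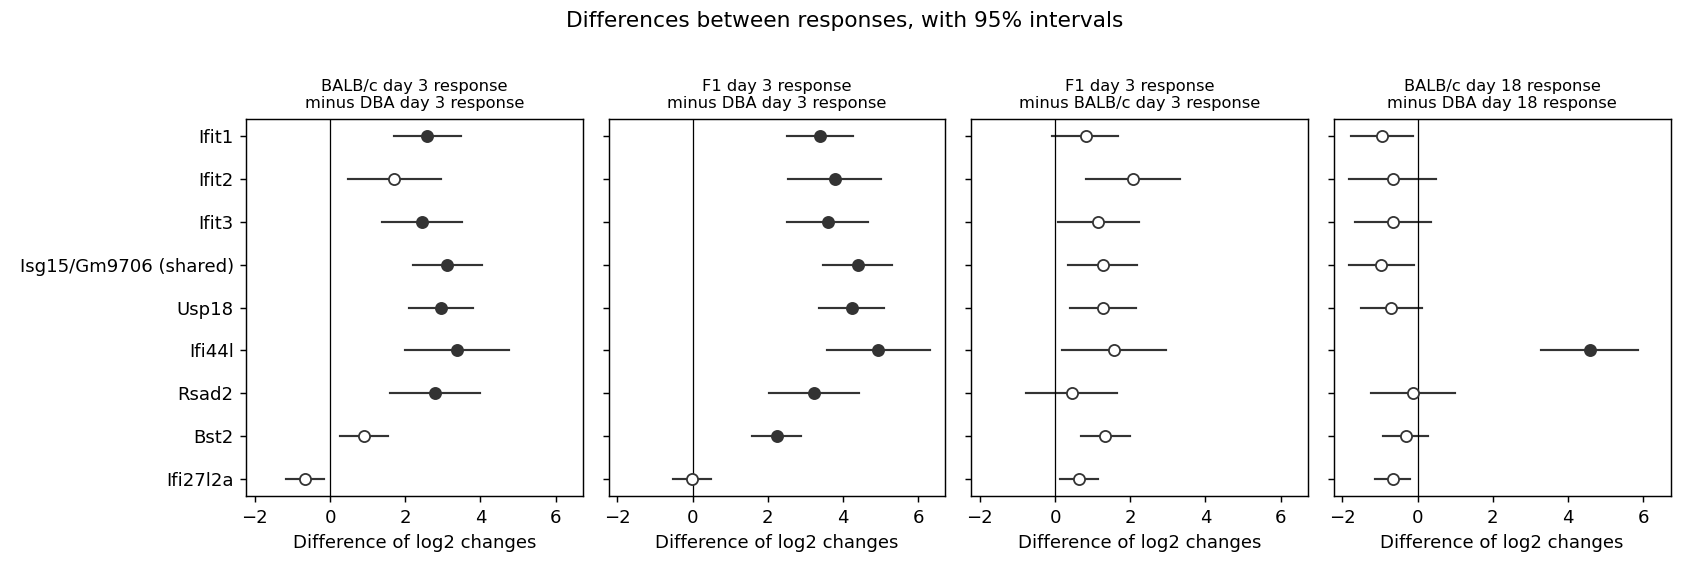
Difference between responses on the log2 scale with its 95% interval, for 8 effector genes and the shared probe set (filled points were called, open points were not). At day 3 BALB/c and the F1 lie to the right of 0 against DBA for every gene but Ifi27l2a, and at day 18 Ifi44l, at 4.58, lies apart from the other genes, which run from -0.96 to -0.13. Ifi44l differences from DBA compare with DBA signals near background.

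Among untreated mice of the day 3 run, 2 of 8 genes were lower in DBA than in BALB/c (7.68% of all genes were called in either direction). Ifi44l averaged 15.8 ± 16 in DBA controls and 106 ± 4.65 in BALB/c controls (SD, n = 3 each). It was called (adjusted p = 0.02), but its DBA signals were all under the dim filter, which it passed through BALB/c and F1 arrays alone, so the size of the difference is not given. The call was lost without BALB/c control replicate 5, 6 or 7, or DBA control replicate 5 or 6 (adjusted p = 0.053 to 0.11). Ifi27l2a averaged 14106 ± 3289 in DBA controls and 24368 ± 4203 in BALB/c controls, a difference of -0.80 ± 0.17 (SE, adjusted p = 0.0036), and was called with any 1 array left out. None of the 8 was called between F1 and BALB/c controls (2.67% of all genes) or between F1 and DBA controls (1.26%). At an unadjusted p under 0.05, 1 of the 8 passed in each, Ifi27l2a in the first (-0.62 ± 0.17, adjusted p = 0.054) and Ifit1 in the second (0.68 ± 0.3, adjusted p = 0.38), against 14.4% and 11% of all genes. Another Rsad2 probe set was called higher than in BALB/c controls both in DBA controls (1.23 ± 0.35, adjusted p = 0.026) and in F1 controls (1.35 ± 0.35, adjusted p = 0.032), where the brightest one gave 0.69 ± 0.41 and 0.80 ± 0.41 and was not called. Sex differed between F1 and parental controls by Xist.

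Ranked by mean log2 signal over the 10 groups by run, Ifit1 was highest in F1 day 3 arrays (13.17 ± 0.25, SD, n = 3). BALB/c day 3, DBA day 18 and BALB/c day 18 arrays stood at 12.28, 12.27 and 12.24, closer than their SD. The untreated groups and DBA day 3 arrays ran from 9.39 down to 7.99. Usp18 ran from 12.35 in the F1 at day 3 down to 7.80 in DBA at day 3, its lowest group, which did not differ beyond its SD from either DBA control group (7.83 and 7.88). Bst2 was highest in DBA day 18 and F1 day 3 arrays (13.56 and 13.43, closer than their SD), and DBA day 3 arrays (11.16) stood between treated and untreated groups. Ifi44l was highest in BALB/c day 18, F1 day 3 and BALB/c day 3 arrays (11.41, 11.17 and 10.48), and its 4 lowest groups were the DBA groups, at 5.34 to 4.78.

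Across the 32 arrays the log2 values of Ifit1, Ifit2, Ifit3, Usp18, Rsad2, Bst2 and the shared probe set had pairwise Pearson correlations of 0.876 to 0.99. These arrays share treatment groups and runs. After each group-by-run mean was taken out, the r of Ifit1 and Usp18 was 0.911, and that of Rsad2 and Bst2 0.341. Ifi44l had r = 0.562 to 0.727 with these, and Ifi27l2a -0.133 to 0.0786. The genes outside the 10 most like the shared Isg15 probe set were Oas1a (0.984), Ms4a4c (0.983), Oasl1 (0.983), Dhx58 (0.981) and H2-T24 (0.98). Those most like Ifit1 were Ddx58 (0.982), Ifih1 (0.979), Ddx60 (0.978), Helz2 (0.976) and Trim30a (0.975). Those most like Ifi27l2a were Mrpl15 (0.765), H2-K1 (0.754), Neat1 (0.74), Gpx3 (0.721) and Ppp1r15b (0.718). The order of nearest genes was not stable to the measure: by Spearman's rho 2 of the 5 stayed among the 5 nearest for each of these 3 anchors.

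Upstream of the effectors, none of the 8 type I and III interferon genes with a probe set of their own passed the dim filter. Ifnb1 reached 112 and Ifna5 147 on their highest arrays, with medians of 34 and 7.25. Of the 6 receptor and ISGF3 genes tested, 4 rose in BALB/c at day 3, 3 in the F1, 4 in DBA, 5 in BALB/c at day 18 and 4 in DBA at day 18, and none fell. The receptor chain Ifnar1 rose in all 5 responses, by 0.64 ± 0.14, 0.77 ± 0.14, 0.82 ± 0.14, 1.00 ± 0.12 and 0.91 ± 0.14 in that order. Unlike most effectors, Ifnar1 rose in DBA at day 3, and its BALB/c minus DBA difference was -0.19 ± 0.2 (adjusted p = 0.87; 95% interval -0.6 to 0.23). The other chain, Ifnar2, rose in BALB/c at day 18 alone of the 5 responses (0.64 ± 0.22). Among the kinases, Jak1 rose in BALB/c and DBA at day 3 (0.31 and 0.37) and Tyk2 in BALB/c and DBA at day 18 (0.35 and 0.61).

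Stat2 and Irf9, which ISGF3 both contains and induces, rose in all 5 responses. Stat2 rose by 1.54 ± 0.2 in BALB/c, 2.80 ± 0.2 in the F1 and 0.87 ± 0.2 in DBA at day 3, and at day 18 by 1.5 ± 0.18 (BALB/c) and 2.84 ± 0.2 (DBA). Its rise was larger in the F1 than in DBA at day 3 (1.92 ± 0.29, adjusted p = 0.00014), larger in DBA at day 18 than at day 3 (1.97 ± 0.29, adjusted p = 0.00015), and smaller in BALB/c than in DBA at day 18 (-1.34 ± 0.27, adjusted p = 0.014). The BALB/c minus DBA difference at day 3 was 0.67 ± 0.29 (adjusted p = 0.43). Irf9 rose by 1.41, 2.07 and 0.92 at day 3 in BALB/c, the F1 and DBA and by 1.53 and 2.07 at day 18 in BALB/c and DBA.

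Of 4 genes that attach ISG15 to other proteins, all 4 rose in BALB/c at day 3, the F1, BALB/c at day 18 and DBA at day 18, and 2 in DBA at day 3. Herc6, the ligase that completes ISG15 conjugation in mice, rose by 2.02 ± 0.28 in BALB/c, 3.39 ± 0.28 in the F1 and 0.75 ± 0.28 in DBA at day 3, and at day 18 by 2.05 ± 0.24 (BALB/c) and 2.59 ± 0.28 (DBA). Uba7, the activating enzyme, rose by 0.72 ± 0.19 in DBA at day 3, against 1.33 ± 0.19 in BALB/c and 2.41 ± 0.19 in the F1. The conjugating enzyme Ube2l6 (0.49, adjusted p = 0.13) and Trim25 (0.28, adjusted p = 0.11), a ligase that also acts on RIG-I, were not called in DBA at day 3. Trim25 was the member of this list whose BALB/c rise exceeded that in DBA at day 3 (0.82 ± 0.18, adjusted p = 0.037).

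Among 11 relatives and neighbours of the effectors that were tested, 8 rose and 1 fell in BALB/c at day 3, 7 and 1 in the F1, 5 and 1 in DBA, 9 and 2 in BALB/c at day 18, and 9 and 1 in DBA at day 18. Cmpk2, which lies beside Rsad2 and supplies its nucleotide, rose by 1.65 ± 0.3 in BALB/c and 3.00 ± 0.3 in the F1 at day 3 and by 1.5 ± 0.26 and 2.03 ± 0.3 in BALB/c and DBA at day 18, and its change in DBA at day 3 was 0.06 ± 0.3 (adjusted p = 0.91). Ifit1bl1, an Ifit1 paralogue, rose by 1.61 ± 0.42 and 3.02 ± 0.42 in BALB/c and the F1, against -0.05 ± 0.42 in DBA (adjusted p = 0.95). The 5 that rose in DBA at day 3 were Ifitm6 (1.80), Ifi30 (1.56), Ifitm1 (1.45), Ifitm2 (0.63) and Ifitm3 (0.62). Ifi27, like Ifi27l2a a member of the IFI27 family, fell in all 5 responses, by 0.94 ± 0.23, 1.15 ± 0.23 and 0.83 ± 0.23 at day 3 in BALB/c, the F1 and DBA and by 0.92 ± 0.2 and 1.41 ± 0.23 at day 18 in BALB/c and DBA. Its group means ran from 6122 to 8849.8 in treated groups and from 13434 to 17546 in controls, with no overlap between treated and control arrays in any response.

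Of 6 negative regulators, 5 rose and 1 fell in BALB/c and the F1 at day 3 and in DBA at day 18, and 4 rose and 1 fell in the other 2 responses. Socs3, an inhibitor of cytokine receptor kinases, rose by 2.95 ± 0.32 in BALB/c, 2.71 ± 0.32 in the F1 and 2.73 ± 0.32 in DBA at day 3. The phosphatase gene Ptpn6 rose by 2.61, 2.84 and 2.21, and Socs1 by 0.97, 1.77 and 1.07, in the same order. Trim24, a transcriptional corepressor, fell in every response, by 0.46 to 0.74. Ifngr2, a chain of the interferon-gamma receptor, also rose in all 5, by 0.95 ± 0.17 in DBA at day 3, whereas Ifng itself was under the filter.

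**Figure D4:**
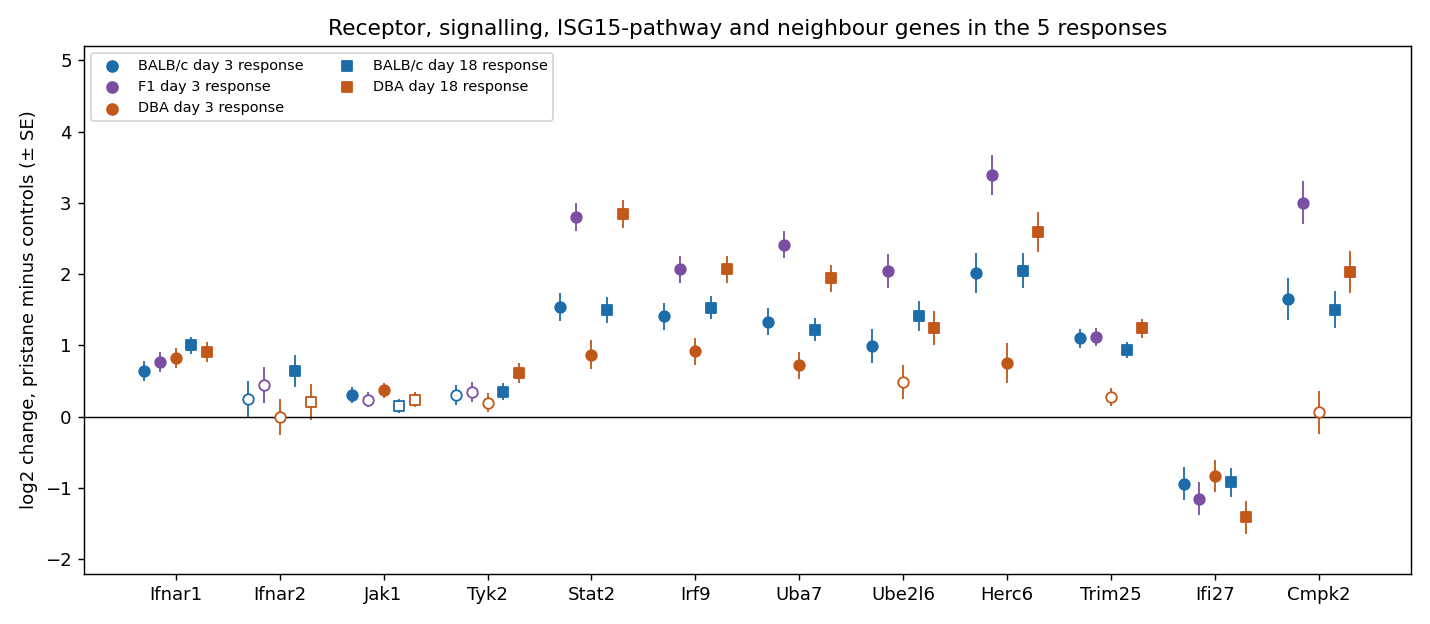
Change on the log2(signal + 24.9) scale, pristane minus controls, with its standard error, of receptor and kinase genes (Ifnar1 to Tyk2), ISGF3 genes (Stat2, Irf9), ISG15 pathway genes (Uba7 to Trim25), Ifi27 and Cmpk2 in the 5 responses (circles day 3, squares day 18; filled points were called). Ifnar1 in DBA at day 3, at 0.82, stands with the other strains, whereas Stat2 (0.87) and Cmpk2 (0.06) are at their lowest there.

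Macrophage and neutrophil markers rose with treatment in every strain. Of 8 B cell markers, 0 rose in BALB/c or DBA at day 3 (1 fell in BALB/c), and 2 rose in the F1. Of 8 T and NK cell markers, 2 rose in BALB/c, 6 in the F1 and 2 in DBA at day 3. Of 10 plasma cell markers, 6, 4 and 3 rose in that order, and 1 fell in DBA. Over all genes 18.3%, 18.6% and 16.4% were called higher. The 9 macrophage and monocyte markers summed to 51136 to 63644 in BALB/c, 53683 to 64132 in the F1 and 52244 to 74274 in DBA at day 3, against 26024 to 30638, 25263 to 33513 and 22970 to 24379 in their controls. In DBA at day 3, 8 of these 9 rose, against 7 of 9 in BALB/c and in the F1, and the summed macrophage signal of the DBA arrays overlapped that of the other strains. At day 18 the sums were 54583 to 74796 in BALB/c and 65796 to 77712 in DBA, against 23364 to 28972 and 22592 to 29142 in controls. The 9 neutrophil markers summed to 20944 to 37751, 9248 to 28156 and 11647 to 20506 at day 3 in BALB/c, the F1 and DBA, and no control array of the day 3 run exceeded 1386. Of these 9, 7 rose in BALB/c, 6 in the F1 and 4 in DBA at day 3. At day 18 they summed to 30360 to 55486 in BALB/c and 21683 to 107969 in DBA, against 1221 to 1680 and 2239 to 9767 in controls. The highest DBA array was replicate 2, the lowest of its group for Ifit2 and Ifit3, and the others reached at most 36382.

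The 8 plasmacytoid dendritic cell markers, of a cell type known for making interferon, summed to 3583 to 4446 in BALB/c, 3952 to 4922 in the F1 and 2872 to 3092 in DBA at day 3, against 2636 to 2977, 2759 to 3170 and 2314 to 2604 in controls. Of these, 4 rose in BALB/c, 5 in the F1 and 3 in DBA. Tcf4 was the brightest of the 8 on the highest array of every treated and control group of the day 3 run. The median signal of 3 of the 8 was under the dim filter. At day 18 they summed to 4448 to 7589 in BALB/c and 3335 to 5231 in DBA, against 2988 to 116467 and 2675 to 3051 in controls, the highest BALB/c control being replicate 2, where Klk1 was the brightest of the 8. Klk1 was also the brightest on the highest treated BALB/c array, replicate 4, whose 7 pancreatic acinar markers summed to 131364. At day 18, 2 of the 8 rose in BALB/c and 5 in DBA. No marker of these lists was at 0 on any array, and their part in the effector changes was not tested.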

How the data were processed

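RNA of 32 mesentery samples was measured on Affymetrix Mouse Genome 430 2.0 arrays. The authors deposited linear signal intensity per probe set, made with GCOS and MAS5 per the submitters' processing notes (versions not given). The 2% trimmed mean of the deposited values was taken on 1 array, BALB/c day 18 replicate 1, and was 500. Per the array annotation, 34958 of 45101 probe sets had 1 symbol, 932 several and 9211 none.

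Probe sets above 103.7, the median signal, on at least 3 arrays were kept (27039), without 64 array controls. A gene was its brightest 1-symbol probe set, and 13016 genes were tested. Values were analysed as log2(signal + 24.9), the offset being the 25th percentile, with limma 3.58.1 in R 4.3.3: a mean for each group in each title code run, moderated variances with an intensity trend, and Benjamini-Hochberg adjustment over all genes for each of 5 responses, 6 differences and 3 control comparisons. The probe set shared by Isg15 and Gm9706 and other probe sets of a gene were tested over the 27039. The number of arrays limits the precision. The code was tested on simulated data.

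Named were the 10 genes, the receptor, kinase and transcription factor genes, up to 4 called genes of each pathway list per response, and the 5 genes most like an anchor. The genes and lists were chosen with earlier results of these data known. Likeness was planned for Isg15 and Ifi27l2a; its use of the shared probe set, and Ifit1 as a further anchor, were added after the data were seen, as were the parental controls for the F1. Alternatives covered the offset, filter, normalization, run levels, model, array weights, probe sets, a term for Xist and each array left out.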

Additional observations from a re-analysis of the deposited data

Results flagged for a closer look

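An outlying array was sought by Dixon's ratio of gap to range in 36 combinations of a gene, or the shared probe set, and an array group. The groups were BALB/c day 18, all BALB/c controls, all DBA controls, and the BALB/c controls of the day 18 run. Groups of 3 arrays were not tested. Chance flags about 1 in 20 of independent tests, but these groups overlap and the genes move together. The 3 flags were all among the 7 BALB/c controls pooled over runs. In BALB/c control replicate 2, Ifit2 read 162, against 328 to 459.5 on the other 6 controls (ratio 0.668). On the same array Ifi44l read 9.4, against 102 to 240.5 (ratio 0.637). In BALB/c control replicate 3, the probe set shared by Isg15 and Gm9706 read 508, against 204 to 291 (ratio 0.617).

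The other results singled out are differences between responses that passed the test of the difference itself (limma, adjusted over all genes). At day 3 the log2 rise in BALB/c exceeded that in DBA by 2.59 for Ifit1, 2.44 for Ifit3, 2.95 for Usp18, 3.38 for Ifi44l and 2.79 for Rsad2. The F1 rise exceeded that in DBA by 3.40 for Ifit1, 3.78 for Ifit2, 3.59 for Ifit3, 4.23 for Usp18, 4.94 for Ifi44l, 3.23 for Rsad2 and 2.24 for Bst2. At day 18 the BALB/c minus DBA difference was 4.58 for Ifi44l. All 3 of these Ifi44l differences set a rise against DBA signals under the dim filter, which the gene passed on no DBA array. In DBA the day 18 rise exceeded that at day 3 by 3.90 for Ifit1, 3.34 for Ifit2, 3.84 for Ifit3, 4.14 for Usp18, 2.52 for Rsad2 and 1.54 for Bst2.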

How the results depend on the processing

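The 112 results for single genes were recomputed under 2696 combinations of result and alternative: 2611 stayed on their side of the threshold (45 of these, not called, changed sign), 47 lost the call, 38 gained it and 0 reversed a call. Each count of genes called is followed by the share of all genes called in the same fit, except some with 1 array left out. With no code run levels, 2 genes were called in the DBA day 3 response (32.2%) and 1 between F1 and DBA controls (2.47%). With array weights, 8 genes were called in the BALB/c minus DBA difference at day 3 (7.14%), 6 in F1 minus BALB/c (5.49%), 7 in BALB/c minus DBA at day 18 (9.91%), 3 between F1 and BALB/c controls (16.1%) and 1 between F1 and DBA controls (9.52%). With a separate fit on the arrays compared, the counts were 1 in F1 minus BALB/c (1.38%), 0 in BALB/c minus DBA at day 18 (0.0461%), 4 between DBA and BALB/c controls (9.88%) and 2 between F1 and BALB/c controls (3.33%). Quantile normalization gave 1 in F1 minus BALB/c (0.254%), and the stricter filter and median centring gave 1 each between F1 and BALB/c controls (3.63% and 1.81%). With any 1 array left out, counts ran from 2 to 5 in BALB/c minus DBA at day 3, 0 to 2 in F1 minus BALB/c, 1 to 2 between DBA and BALB/c controls and 0 to 1 between F1 and BALB/c controls. In the first, fits with 2 or 3 genes called had shares of 0.177% to 0.369%, and in the second the fit with 2 had 0.438%. Fits with 1 gene called had shares of 4.88% to 5.52% in the third and 1.76% to 2.07% in the last. Of the 5 genes nearest the shared Isg15 probe set, 0 stayed nearest by deviations from group means and 2 by Spearman's rho; for Ifit1 these were 2 and 2, and for Ifi27l2a 1 and 2. The cause of these shifts was not tested. No paired analysis was possible because the labels give no replicate numbers that tie a treated array to a control. Ifi44l on DBA arrays was too dim for an order.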
